A study of Mus musculus with 6 samples.

Results

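Genes of the respiratory chain, the mitochondrial ribosome and the mitochondrial import machinery were followed in meningeal lymphatic endothelium of 5xFAD mice and of non-transgenic littermates (WT). Members were chosen by name. A gene belonged if its name started with mt-, Nduf, Sdh, Uqcr, Cox and a digit, Atp5, Mrpl, Mrps, Timm or Tomm, or if it lay on the mitochondrial chromosome. The prefixes gave 30 nuclear genes and no gene written with mt-. The mitochondrial chromosome added 4 genes listed by Ensembl identifier and 12 protein-coding genes listed by RefSeq symbol (ND1, COX1, CYTB and others), so that 46 of 4233 listed genes were described, 16 mitochondrially encoded and 30 nuclear. Without the RefSeq-named genes, which carry none of the prefixes, the rule by its letter gives 34.

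The groups were 3 libraries from male 5xFAD hemizygous mice and 3 libraries from male non-transgenic mice, all labelled C57BL/6J and aged 6 months. Each library came from the meninges of 10 mice, pooled and sorted for DAPI-, CD45-, CD31+ and PDPN+ cells. In the 5xFAD strain the neuronal Thy1 promoter drives the transgenes, so the sorted endothelium itself is not where they are meant to be active. Linear amplification preceded library generation, and the recovered reads over listed genes numbered 7960827 to 13255050 in 5xFAD and 10263689 to 11934686 in WT libraries.

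Mitochondria make ATP with the respiratory chain. Complexes I, III and IV pass electrons from NADH and ubiquinol to oxygen and pump protons, complex II feeds in electrons from succinate, and complex V uses the proton gradient to make ATP. A few core subunits, the ribosomal RNAs and the tRNAs are encoded by the mitochondrial chromosome, which is transcribed as long precursors that are cut into single RNAs. All other subunits, and every protein of the mitochondrial ribosome, are encoded in the nucleus and imported through the TOM and TIM complexes. Endothelial cells are known to draw much of their ATP from glycolysis, while lymphatic endothelium is known to depend on mitochondrial respiration for its differentiation.

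Of 46 members 44 reached the mean value of 10 required for testing, and of these 1 was called higher and 3 lower in 5xFAD. The mitochondrial ribosomal RNA mt-Rnr1 was higher, and Ndufb5, an accessory subunit of complex I, Mrpl11, a protein of the large mitochondrial ribosomal subunit, and Mrps33, a protein of the small subunit, were lower (limma, Benjamini-Hochberg adjusted p under 0.05 over 4152 genes). Over all tested genes, 6.36% passed in either direction, 1.88% higher and 4.48% lower. Of the 15 tested mitochondrially encoded genes 1 was called higher and 0 lower. Of the 29 tested nuclear members 0 were called higher and 3 lower, which is 10.3% beside the 4.48% of all tested genes. Mitochondrial mRNAs are counted here as 1 for each listed protein-coding gene, without regard to genes that share a transcript. None of these 12 mitochondrial mRNAs passed by limma, edgeR or DESeq2, and 0 had an unadjusted p under 0.05, beside 16.3% of all tested genes. These are few calls, and no test set the members against other genes. On recovered reads edgeR called 6.05% of all tested genes (1.93% higher, 4.12% lower), and among members it called Mrps33 lower. DESeq2 called 10.3% (3.93% higher, 6.36% lower), and among members it called Mrpl10 higher and Ndufb5, Mrpl11 and Mrps33 lower. Values are normalised counts (reads divided by 1 factor per library), a fold change is 5xFAD minus WT on the log2(value + 1) scale, and ± is the SD of 3 libraries unless named otherwise.

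The promoters of the called nuclear genes are shown because NRF1, GABP and YY1 are known regulators of many respiratory chain and mitochondrial ribosome genes. Each window runs from 250 bases before to 50 after a RefSeq gene start (GRCm38.p6), and capitals mark matches on either strand.

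Ndufb5, chr3:32736813-32737112, plus strand: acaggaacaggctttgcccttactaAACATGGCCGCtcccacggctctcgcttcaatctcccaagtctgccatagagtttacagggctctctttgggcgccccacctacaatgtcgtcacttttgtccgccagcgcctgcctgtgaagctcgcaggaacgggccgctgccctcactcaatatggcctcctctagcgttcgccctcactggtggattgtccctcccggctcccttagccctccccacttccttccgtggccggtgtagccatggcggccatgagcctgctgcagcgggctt

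Mrpl11, chr19:4962056-4962355, plus strand: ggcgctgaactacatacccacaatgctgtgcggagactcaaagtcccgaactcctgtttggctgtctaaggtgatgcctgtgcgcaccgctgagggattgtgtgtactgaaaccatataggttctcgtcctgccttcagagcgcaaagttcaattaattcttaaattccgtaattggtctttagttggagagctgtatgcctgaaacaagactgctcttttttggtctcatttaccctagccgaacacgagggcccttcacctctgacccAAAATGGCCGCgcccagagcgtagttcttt

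Mrps33, chr6:39810887-39811186, minus strand: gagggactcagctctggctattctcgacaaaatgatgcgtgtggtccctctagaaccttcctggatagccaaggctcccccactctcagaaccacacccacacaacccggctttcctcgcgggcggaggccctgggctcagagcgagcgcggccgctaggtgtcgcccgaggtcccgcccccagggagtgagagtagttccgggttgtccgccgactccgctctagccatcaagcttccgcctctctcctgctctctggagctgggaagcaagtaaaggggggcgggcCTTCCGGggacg

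The capitals in Ndufb5 and Mrpl11 match the YY1 motif, searched as AA, any base, ATGGC, any base and GC in a row, and those in Mrps33 match, on the opposite strand, the GABP motif, searched as CCGGAAG. The NRF1 motif was searched as GCGCA, any base and GCGC in a row. Both strands were searched for each. Windows were found for 26 of the 30 nuclear members, 29 windows in all. The YY1 letters were in 13.8% of them (Mrpl11, Mrpl35, Mrps7 and Ndufb5), beside 1.8% of all 32851 promoter windows. The GABP letters were in 24.1% of them (Atp5h, Atp5j, Mrpl51, Mrpl57, Mrps33 and Tomm34), beside 8.86% of all windows. The NRF1 letters were in 17.2% (Atp5h, Mrpl45, Mrpl57, Ndufaf4 and Ndufs5), beside 4.6%. The 4 genes with the YY1 letters had log2 fold changes of -3.42 (Mrpl11), -3.37 (Ndufb5), -1.36 (Mrps7) and -0.87 (Mrpl35), of which Mrpl11 and Ndufb5 passed. Among those with the NRF1 letters, none of which passed, values ran from -1.99 (Ndufaf4) to 2.54 (Mrpl57). Among those with the GABP letters they ran from -5.20 (Mrps33, which passed) to 2.54 (Mrpl57). Of all 29 tested nuclear members, 18 had a negative log2 fold change. Whether a motif goes with the direction of change was not tested. The windows used for comparison include those of genes not listed here, and shares over the listed genes alone were not computed. A match is a description of the window and not of binding.

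The libraries held the sorted cell type. All 8 lymphatic endothelial markers drawn up were listed (Prox1, Flt4, Lyve1 and others) and their summed level was 221821 to 364403 in 5xFAD and 251607 to 288492 in WT. Of 8 blood endothelial markers 4 were listed, with sums of 18447 to 24542 in 5xFAD and 13418 to 22056 in WT, and of 10 meningeal fibroblast markers 5 were listed, with sums of 23995 to 26659 in 5xFAD and 21974 to 40861 in WT. Of 7 mural markers 2 were listed, at 721 to 2339 in 5xFAD and 1524 to 5708 in WT. No marker of leukocytes or of erythroid cells and platelets was analysed here. None of these cell type markers was called, and none of those listed was at 0 in any library. Of 5 nuclear RNAs drawn up 3 were listed, and Malat1, which stays in the nucleus, was called higher, with 508449, 568699 and 678311 in 5xFAD and 397665, 436825 and 404136 in WT (log2 fold change 0.49; limma adjusted p = 7.3e-06). It also passed by edgeR (adjusted p = 0.0116) and did not by DESeq2 (adjusted p = 0.733). Listed genes without reads numbered 86 to 147 in 5xFAD and 25 to 42 in WT libraries, and the part of that difference, of Malat1 and of other cell types in the results below was not tested. In bulk samples like these, fewer cells of a type and less RNA per cell cannot be told apart.

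The mitochondrial ribosomal RNAs, the RNA core of the ribosome that translates the mitochondrial mRNAs, were the most abundant members. mt-Rnr1 (small subunit rRNA; GRCm38 mitochondrial chromosome, 70 to 1024, plus strand) had 861164, 755606 and 628810 normalised counts in the 5xFAD libraries, against 632879, 612096 and 629841 in the WT libraries. The WT libraries were tightly grouped, 5xFAD 1 and 2 lay above all of them, and 5xFAD 3 lay among them, so the groups overlapped. Its log2 fold change was 0.25 (SE 0.08, 95% interval 0.09 to 0.40; limma adjusted p = 0.0283), from 748526 ± 116339 in 5xFAD and 624939 ± 11226 in WT. mt-Rnr2 (large subunit rRNA; 1094 to 2675) had 1265333, 991253 and 827270 in 5xFAD and 904115, 1009874 and 943781 in WT, with a log2 fold change of 0.09 (-0.04 to 0.22; limma adjusted p = 0.559). The ratio of mt-Rnr2 to mt-Rnr1 reads was 1.47, 1.31 and 1.32 in the 5xFAD libraries and 1.43, 1.65 and 1.50 in the WT libraries.

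The mt-Rnr1 call depended on the libraries, on how the spread was estimated and on the scaling. It was lost without 5xFAD 1 (log2 fold change 0.14; limma adjusted p = 0.409), WT 1 (0.196), WT 2 (0.319) or WT 3 (0.222). Without 5xFAD 3, mt-Rnr1 was at 0.37 and mt-Rnr2 passed too, at 0.235 (limma adjusted p = 0.00286). The fit took the spread from genes of similar level, with no weight on a gene's own replicates, and the call was lost with a prior that ignores level (limma adjusted p = 0.940), with edgeR (adjusted p = 0.308) and with DESeq2 (adjusted p = 0.883). Scaled to the same total over listed genes, the log2 fold change was 0.13 (limma adjusted p = 0.458), and with quantile normalization it turned to -0.17.

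Over the 12 mitochondrial mRNAs the median absolute log2 fold change was 0.17 and the median pooled SD of log2 values within groups was 0.60. Over all tested genes these were 0.79 and 1.08. The first value compares means of 3 libraries and the second describes single libraries. Per kilobase of transcript, COX1, the catalytic subunit of complex IV, had the highest level, at 61180 ± 14684 normalised counts per kilobase in 5xFAD and 59374 ± 4054 in WT, and its lowest library lay above the highest library of every other mRNA. ND4, CYTB and ND1 came next, at 19254 ± 776, 20128 ± 2590 and 20038 ± 8018 in 5xFAD and 18077 ± 6961, 17125 ± 5862 and 16700 ± 2525 in WT. Their libraries overlapped, so their order is not resolved. ATP8, a small subunit of complex V, had the lowest level per kilobase, at 582 ± 414 in 5xFAD and 685 ± 651 in WT, and its reading frame shares 43 bases with that of ATP6, so that reads there can be counted for either. The annotated genes ND4L and ND4 share 7 bases. Values for both pairs are per annotated gene and need not be levels of separate transcripts. ND5 and ND6 share 14 on opposite strands, and how the counting treated strand is not given in the sources used here.

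**Figure D1:**
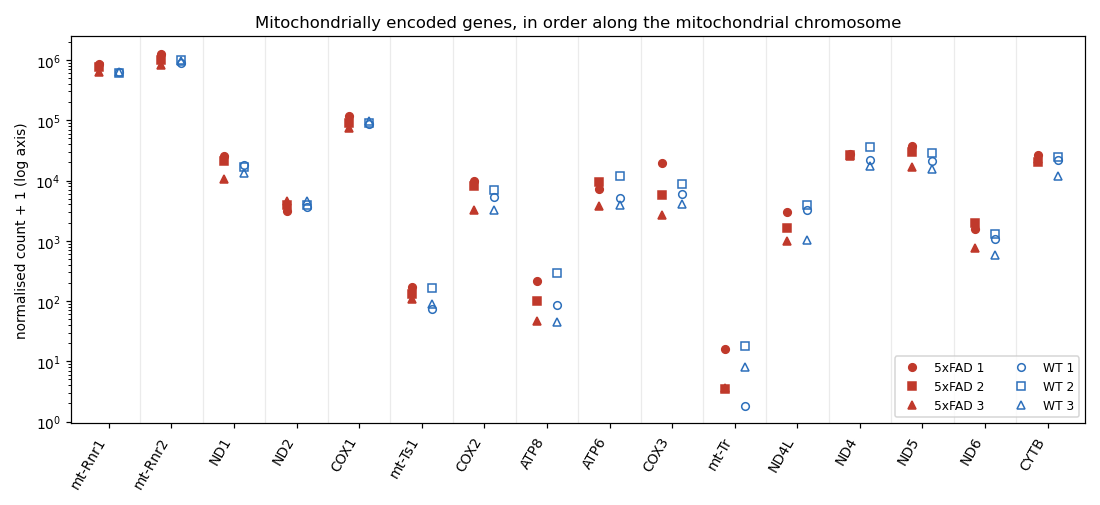
Normalised counts plus 1 (log axis) of the 16 mitochondrially encoded genes in each library, placed by their order along the mitochondrial chromosome, with 5xFAD as filled red and WT as open blue symbols (circle, square and triangle for libraries 1, 2 and 3). For most mRNAs the triangles of both groups lie lowest, ND2 being an exception, and the groups overlap at all 16 genes.

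By complex, the mitochondrially encoded subunits of complex I come first. ND5, in the proton-pumping membrane arm, had 37668, 29381 and 16674 in 5xFAD and 21360, 28418 and 15464 in WT (log2 fold change 0.33, 95% interval -0.43 to 1.08; limma adjusted p = 0.777). ND1, which lines the path of ubiquinone, had 25503, 21385 and 10640 in 5xFAD and 17866, 16821 and 13258 in WT (0.18, interval -0.69 to 1.05). For both, 5xFAD 3 was the lowest of the 5xFAD and WT 3 the lowest of the WT libraries. ND4 had 27726, 26205 and 25664 in 5xFAD, a narrow range, inside the 21919, 35642 and 17169 of WT. ND2 ran the other way within groups, at 3151, 3911 and 4527 in 5xFAD and 3627, 3880 and 4534 in WT, so that library 3 was the highest of each group. ND4L had a log2 fold change of -0.51 and ND6, the mRNA made from the opposite strand, of 0.52, the lowest and the highest of the 12 mRNAs, with groups that overlapped. ND3 was not analysed here.

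CYTB, the mitochondrially encoded subunit of complex III, had 26267, 20456 and 22357 in 5xFAD and 21696, 24992 and 12085 in WT (log2 fold change 0.29, interval -0.51 to 1.09). COX1 had 118742, 91058 and 73767 in 5xFAD and 86878, 89515 and 98803 in WT (0.02, interval -0.40 to 0.44), the narrowest interval among the mRNAs. Interval widths follow a gene's level and not its own libraries. As a pooled SD of log2 values within groups, ND2 had the smallest spread of the mRNAs (0.22, beside 0.25 for COX1). COX2, which takes electrons from cytochrome c, was at 9736, 8032 and 3245 in 5xFAD and 5418, 6879 and 3271 in WT (0.35). COX3 had, as a pooled SD of log2 values within groups, the widest spread of the complex IV mRNAs (1.10), with 19700, 5708 and 2636 in 5xFAD and 6013, 8636 and 4069 in WT. Its log2 fold change was 0.16 with all libraries and -0.62 without 5xFAD 1, the library with 19700. ATP6, the proton channel subunit of complex V, was at 7258, 9342 and 3752 in 5xFAD and 5174, 12008 and 3938 in WT (0.02, interval -1.20 to 1.24).

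Adjusted p-values of the 12 mRNAs ran from 0.777 to 0.993 (limma), and 9 had a positive and 3 a negative log2 fold change, with a median of 0.16, beside -0.02 over all tested genes. The highest library was 5xFAD 1 for 9 of the 12 mRNAs in 5xFAD, and WT 2 for 9 of 12 in WT. Relative to each gene's mean over the 6 libraries, the median log2 deviation of the mRNAs was 0.54, 0.03 and -0.61 in 5xFAD libraries 1 to 3 and -0.08, 0.28 and -0.65 in WT libraries 1 to 3. The lowest library of one group was thus about as low as that of the other. Scaled to the same total, COX1 and ATP6 turned negative (-0.10 each). That scaling moved the median of all tested genes to -0.14.

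Reads of mitochondrial mRNAs made up 2.55%, 2.26% and 1.45% of recovered reads in the 5xFAD libraries and 2.08%, 2.43% and 1.65% in the WT libraries. The ribosomal RNAs took 19.3%, 18.0% and 12.8% in 5xFAD and 16.5%, 17.0% and 14.9% in WT. Both shares were highest in 5xFAD 1 and lowest in 5xFAD 3, so the widest spread was inside the 5xFAD group and both groups overlapped. For every 100 rRNA reads there were 13.2, 12.5 and 11.3 mRNA reads in 5xFAD and 12.6, 14.3 and 11.1 in WT. All nuclear members together took 0.167%, 0.142% and 0.244% in 5xFAD and 0.200%, 0.196% and 0.217% in WT. These are shares of reads in listed genes and not of the whole library. Reads of mitochondrial transcripts can also come from, or be counted to, nuclear copies of mitochondrial DNA, which makes single levels uncertain.

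Among the tRNAs, which carry amino acids to the ribosome, mt-Ts1, for serine, had 172, 130 and 106 in 5xFAD and 73.1, 161 and 86.7 in WT (log2 fold change 0.40; limma adjusted p = 0.918). mt-Tr, for arginine, had 18, 2 and 2 recovered reads in 5xFAD and 1, 18 and 8 in WT and stayed under the mean value of 10 required for testing. Of 22 annotated mitochondrial tRNAs only these 2 were analysed here.

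The nuclear members varied far more between libraries. The pooled SD of log2 values within groups had a median of 1.07 over the 29 tested nuclear members, 0.60 over the 12 mitochondrial mRNAs and 1.08 over all tested genes. Where no library was at 0, the highest library exceeded the lowest of its group by up to 17.6-fold. The 95% intervals of the 26 nuclear members that did not pass reached 1.25 to 2.10 log2 units to either side of the estimate. These widths come from the spread of genes of similar level and not from a member's own libraries. Mrpl45 and Mrpl11 both had an SE of 1.07, with own pooled SDs of 0.41 and 1.91. A positive log2 fold change was found for 11 and a negative one for 18 of 29, with a median of -0.47. Without 5xFAD 1 that median was -0.033, and without WT 3 it was -0.28. Groups did not overlap for 6 of 29 nuclear members (20.7%), 3 with all 5xFAD libraries higher and 3 with all lower, and for 18.1% of all tested genes (7.97% higher, 10.1% lower).

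**Figure D2:**
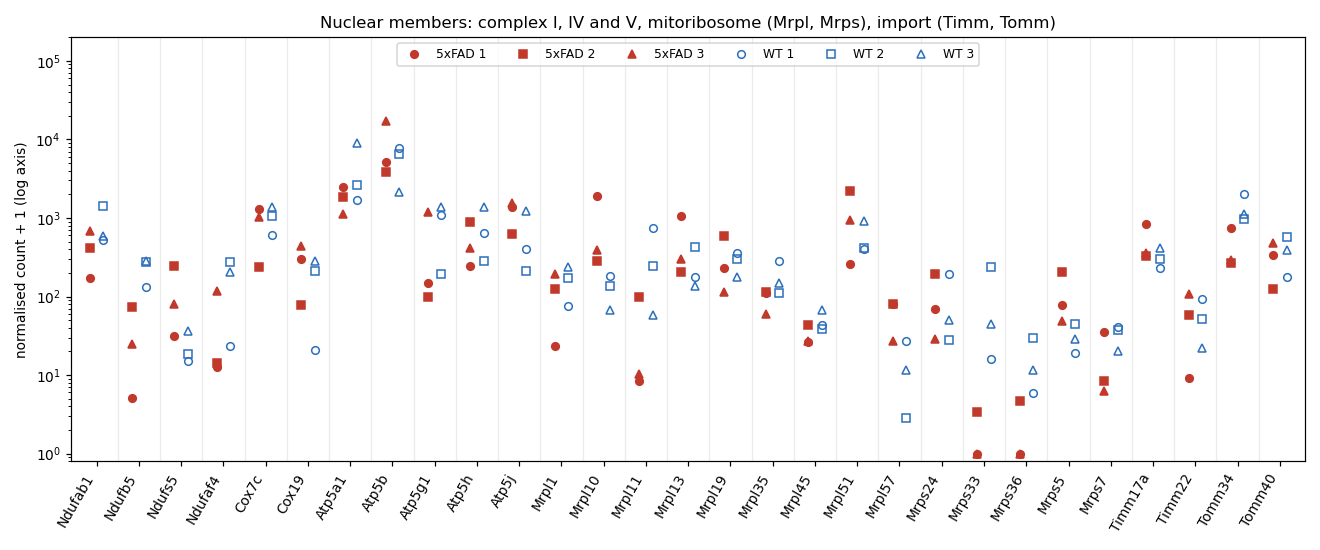
Normalised counts plus 1 (log axis) of 29 of the 30 nuclear members in each library, with 5xFAD as filled red and WT as open blue symbols (circle, square and triangle for libraries 1, 2 and 3). Libraries of one group often lie a factor of several apart, and Mrps33 and Mrps36 each have 2 5xFAD libraries at 0 reads.

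Of the nuclear complex I genes, 5 of 46 annotated Nduf genes were listed. Ndufb5, an accessory subunit of the membrane arm whose promoter window holds the YY1 letters (GRCm38 chromosome 3, 32736990 to 32751566, plus strand), had 4.15, 72.9 and 23.9 normalised counts in 5xFAD, against 132, 278 and 280 in WT. Every 5xFAD library lay below every WT library, and 5xFAD 2 came closest. The means were 33.7 ± 35.4 in 5xFAD and 230 ± 84.6 in WT, a log2 fold change of -3.37 (SE 1.07, 95% interval -5.47 to -1.27; limma adjusted p = 0.0295). The call was kept in 2 of 6 fits that each left out 1 library, and lost without 5xFAD 1 (-2.35; limma adjusted p = 0.338), 5xFAD 3 (0.0784), WT 2 (0.123) or WT 3 (0.113). Without 5xFAD 2 the log2 fold change was -4.27. It was also lost with edgeR (-2.81; adjusted p = 0.105). Its gene span, introns included, overlaps that of Mrpl47, another mitochondrial ribosomal gene on the opposite strand, by 616 bases. How much of this is exon, and whether reads were affected, was not tested.

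Ndufab1, the mitochondrial acyl carrier protein, was at 171, 413 and 675 in 5xFAD and 516, 1399 and 585 in WT (log2 fold change -1.05). The groups overlapped. Ndufs5, an accessory subunit, went the other way, with 30.7, 247 and 78.3 in 5xFAD and 14.0, 17.7 and 35.4 in WT (1.98, interval -0.12 to 4.08; limma adjusted p = 0.350). Ndufaf4, an assembly factor of complex I, had 11.6, 13.4 and 117 in 5xFAD and 22.2, 277 and 207 in WT (-1.99; limma adjusted p = 0.345). Thus 1 of the 5 was called, beside 6.36% of all tested genes, and the uncalled ones did not share a sign.

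No Sdh gene of complex II and no Uqcr gene of complex III was among the listed genes. For complex IV, Cox7c, a small structural subunit, had 1302, 237 and 1037 in 5xFAD and 610, 1068 and 1368 in WT (log2 fold change -0.49, interval -2.38 to 1.40). Cox19, needed for copper delivery during assembly of complex IV, had 301, 76.6 and 443 in 5xFAD and 19.7, 208 and 285 in WT (1.02, interval -1.06 to 3.10). Neither passed, and the groups overlapped for both.

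All 5 listed Atp5 genes of complex V overlapped between groups, and 0 passed by limma, edgeR or DESeq2. Atp5b, the catalytic beta subunit, had 5211, 3837 and 17148 in 5xFAD and 7786, 6450 and 2160 in WT (log2 fold change 0.55, interval -0.70 to 1.81). Atp5a1, the alpha subunit that alternates with it in the F1 head, had 2497, 1855 and 1121 in 5xFAD and 1704, 2599 and 8973 in WT (-0.98, interval -2.55 to 0.59). In 5xFAD 3 the beta mRNA was highest and the alpha mRNA lowest of that group, and in WT 3 the reverse held. Atp5g1, a gene for the membrane ring subunit c, was at 148, 98.5 and 1187 in 5xFAD and 1101, 192 and 1358 in WT (-1.34). For the peripheral stalk, Atp5j had 1367, 624 and 1566 in 5xFAD and 399, 208 and 1217 in WT (1.24), and Atp5h had a log2 fold change of -0.47. Atp5j overlaps Gabpa, a transcription factor gene on the opposite strand, by 701 bases.

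The mitochondrial ribosome held the largest number of members, 9 of 49 annotated Mrpl and 5 of 29 annotated Mrps genes. Of the 13 tested, 2 were called lower (15.4%) and 0 higher, beside 4.48% lower and 1.88% higher of all tested genes. The median log2 fold change was -0.09, with 6 positive and 7 negative. Mrpl11, a protein at the base of the stalk that binds translation factors (chromosome 19, 4962147 to 4966999, plus strand), had 7.46, 97.3 and 9.29 in 5xFAD, against 736, 244 and 56.6 in WT. The groups overlapped, because 5xFAD 2 lay above WT 3. The means were 38.0 ± 51.3 in 5xFAD and 346 ± 351 in WT, a log2 fold change of -3.42 (SE 1.07, interval -5.52 to -1.32; limma adjusted p = 0.0262). Leaving out 1 library gave -2.54 (WT 1), -2.78 (5xFAD 1), -4.38 (WT 3) and -4.55 (5xFAD 2), and the call was kept in 2 of 6 such fits (limma adjusted p from 0.00448 to 0.280). The call was also lost with edgeR (-3.22; adjusted p = 0.0502), with quantile normalization (limma adjusted p = 0.0521), with a robust prior that ignores level (limma adjusted p = 0.0559) and among genes with reads in every library (limma adjusted p = 0.0637).

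Mrps33, a small subunit protein of the mitochondrial ribosome (chromosome 6, 39801804 to 39810988, minus strand), and the called gene with the GABP letters, had 0, 2 and 0 recovered reads in the 5xFAD libraries, against 18, 258 and 50 in the WT libraries. As normalised counts these were 0, 2.43 and 0 in 5xFAD and 14.8, 240 and 44.2 in WT, without overlap. The means were 0.81 in 5xFAD and 99.6 in WT, so Mrps33 reached the level required for testing through the WT libraries alone. From the summed reads the ratio of WT over 5xFAD was 132, with a counting interval of 36.4 to 1099 that covers counting error only. The fitted log2 fold change was -5.20 (SE 1.04; limma adjusted p = 3.11e-05), and it depends on the pseudocount, being -5.93 at a pseudocount of 0.5 and -3.44 at 5. It was the 1 member whose call was kept in all 6 fits that left out a library (limma adjusted p from 1.45e-06 to 0.00286), with edgeR (adjusted p = 0.000197) and with DESeq2 (adjusted p = 7.88e-05). Its size moved to -4.15 without WT 2, the library with 258 reads, to -6.11 without WT 1 and to -5.80 without 5xFAD 2. Libraries without reads were uncommon among tested genes, and Mrps33 was the 1 tested member with any, beside 3.9% of all tested genes. Listed genes without reads were more numerous in the 5xFAD libraries (86 to 147) than in the WT libraries (25 to 42). Mrps36, now known mainly as a component of the 2-oxoglutarate dehydrogenase complex, had 0, 3 and 0 reads in 5xFAD and 6, 31 and 12 in WT. It lay under the level required for testing. Its ratio of WT over 5xFAD was 13.3 with a counting interval of 4.28 to 66.6.

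**Figure D3:**
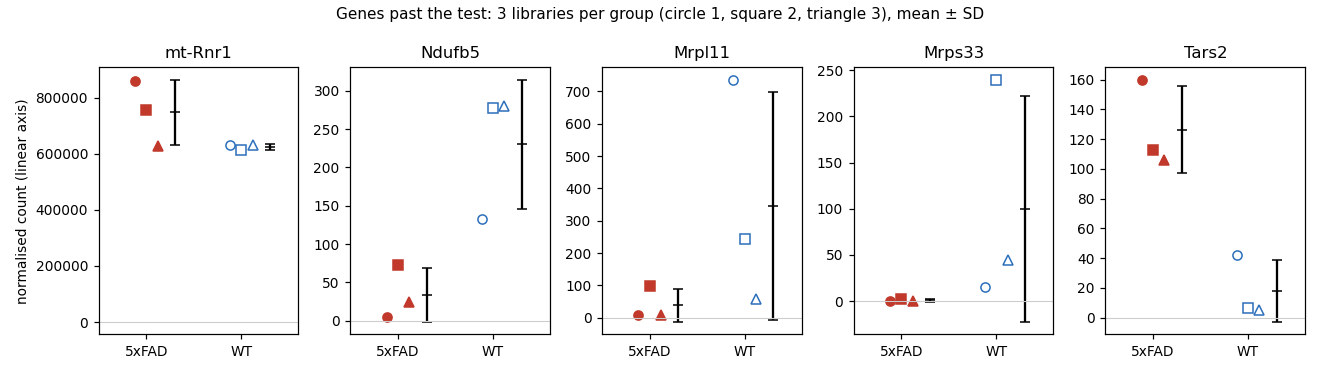
Normalised counts (linear axis) of mt-Rnr1, Ndufb5, Mrpl11, Mrps33 and Tars2, with 3 5xFAD libraries in red left of 3 WT libraries in blue, and the mean ± SD of each group in black. The groups are apart for Ndufb5, Mrps33 and Tars2, while 5xFAD 3 lies among the WT libraries for mt-Rnr1 and 5xFAD 2 lies above WT 3 for Mrpl11.

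Several ribosomal members lay on the other side without passing. Mrpl57 had 80.5, 79.0 and 26.5 in 5xFAD and 26.3, 1.86 and 10.6 in WT (log2 fold change 2.54, SE 1.06; limma adjusted p = 0.151). Mrpl10, which anchors the stalk of the large subunit, had 1911, 283 and 389 in 5xFAD and 183, 137 and 65.5 in WT (2.32, SE 1.04; limma adjusted p = 0.203). Mrps5, a protein near the decoding site, had 76.3, 204 and 47.8 in 5xFAD and 18.1, 43.7 and 27.4 in WT (1.67; limma adjusted p = 0.475). In all 3 the lowest 5xFAD library lay above the highest WT library. Mrpl10 passed by DESeq2 (log2 fold change 2.74; adjusted p = 0.0175) and not by edgeR (adjusted p = 0.118), and it overlaps a noncoding gene on the opposite strand by 523 bases. Mrpl51 had 258, 2226 and 953 in 5xFAD and 403, 411 and 906 in WT (0.62), and Mrps24 had 68.0, 190 and 27.9 in 5xFAD and 191, 27.0 and 49.5 in WT (0.16). The gene spans of Mrps24 and Urgcp, introns included, share 2264 bases on the same strand. Whether reads were split between them was not tested. The remaining Mrpl and Mrps genes had log2 fold changes between -1.36 (Mrps7) and 0.88 (Mrpl13), all with overlapping groups.

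Of the import genes 0 of 4 were called by limma, edgeR or DESeq2. Tomm34, a cytosolic co-chaperone that assists import, had 746, 265 and 289 in 5xFAD and 2031, 975 and 1137 in WT. All 5xFAD libraries lay below all WT libraries, but the log2 fold change of -1.76 (SE 0.98, interval -3.68 to 0.15) did not pass (limma adjusted p = 0.369). It shares 848 bases with Stk4 on the opposite strand. Tomm40, the channel of the outer membrane, had 339, 125 and 484 in 5xFAD and 176, 579 and 395 in WT (-0.32). Timm17a, a subunit of the inner membrane translocase for presequence proteins, was at 829, 322 and 358 in 5xFAD and 233, 302 and 418 in WT (0.57), and Timm22, the core of the carrier translocase, at 8.29, 57.1 and 107 in 5xFAD and 92.9, 50.2 and 21.2 in WT (-0.29).

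**Figure D4:**
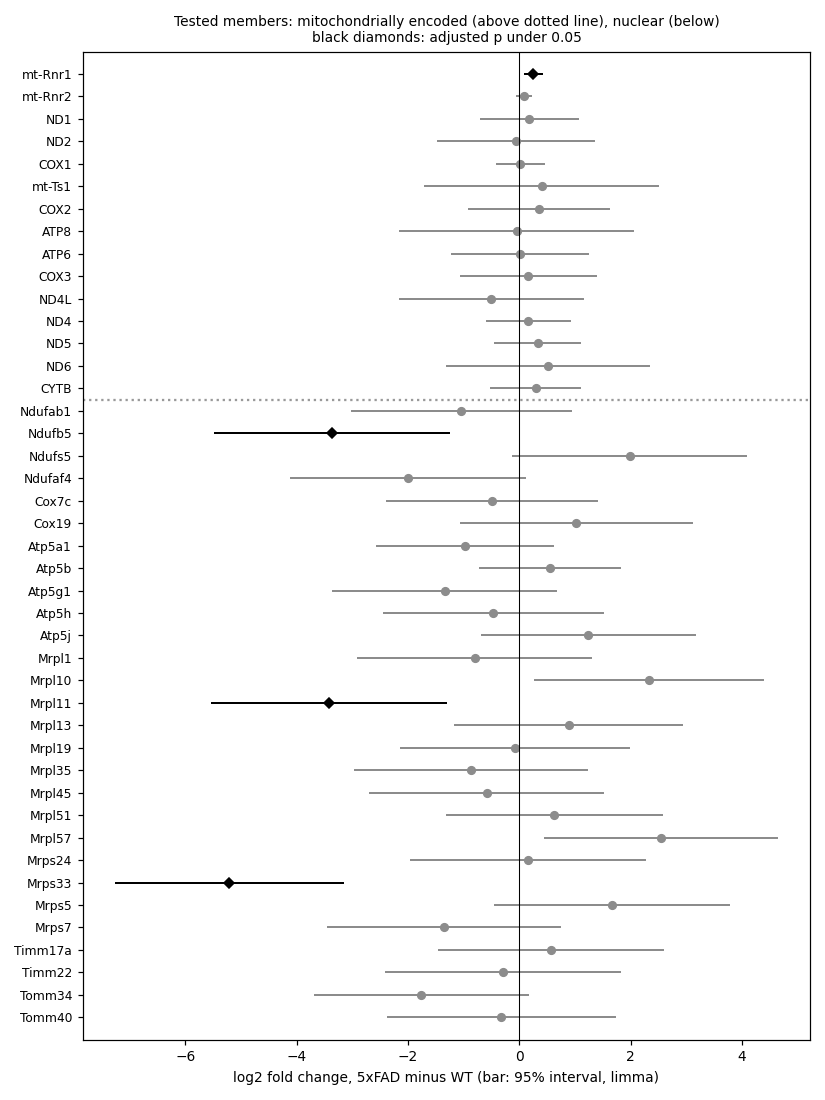
Log2 fold change (5xFAD minus WT) with its 95% interval for 43 of the 44 tested members, mitochondrially encoded genes above the dotted line in chromosome order and nuclear members below it, from limma. Black diamonds mark mt-Rnr1, Ndufb5, Mrpl11 and Mrps33, whose adjusted p was under 0.05, and intervals are much wider for the nuclear genes than for the abundant mitochondrial rRNAs and COX1. Interval widths follow a gene's level and not the spread of its own libraries.

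Other genes of the pathway, drawn up by role and outside the naming rule, were listed for 24 of 183 symbols, and 23 were tested. Of these 1 was called higher (4.35%) and 0 lower, beside 1.88% higher and 4.48% lower of all tested genes. Their median log2 fold change was -0.13. Among the 23, groups were apart for 4 (17.4%), 3 with all 5xFAD libraries higher and 1 with all lower. Over all tested genes this held for 18.1% (7.97% higher, 10.1% lower). The called gene was Tars2, which charges mitochondrial threonine tRNA, with 160, 113 and 106 in 5xFAD, against 41.9, 6.51 and 5.31 in WT. The groups were apart, with means of 126 ± 29.3 in 5xFAD and 17.9 ± 20.8 in WT (log2 fold change 3.31, SE 1.07; limma adjusted p = 0.0337). The call was kept in 1 of 6 fits that left out a library, without WT 1 (4.19; adjusted p = 0.0121), and lost in the other 5 (limma adjusted p up to 0.200) and with edgeR (2.77; adjusted p = 0.127).

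Mgme1, a nuclease that maintains mitochondrial DNA, was picked out after its values were seen. It had 24.1, 21.9 and 14.6 in 5xFAD and 131, 160 and 136 in WT, without overlap, with a log2 fold change of -2.78 (SE 1.07; limma adjusted p = 0.106). It passed by DESeq2 (-2.81; adjusted p = 0.00258) and under limma with a prior that ignores level (adjusted p = 0.0421). Mtg2, a GTPase of mitochondrial ribosome assembly, had 92.1, 148 and 101 in 5xFAD and 135, 861 and 839 in WT (-2.04; limma adjusted p = 0.312) and passed by DESeq2 (adjusted p = 0.0280). Mtg2 too was picked out after its values were seen. By edgeR neither passed (adjusted p = 0.109 for Mgme1 and 0.169 for Mtg2). The nuclear regulators of respiratory chain and mitochondrial ribosome genes did not pass by limma, edgeR or DESeq2. Nrf1 had a log2 fold change of -1.04, Gabpa of 0.37, Gabpb2 of -0.09 and Yy1 of -1.17.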

How the data were processed

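RNA sequencing of 6 libraries (3 5xFAD, 3 WT) was used. The table deposited by the authors holds normalised gene counts, a signal scaled by 1 factor for each library. The submitters' processing notes name mm10 and the tools Salmon, DESeq2, Trimmomatic and FastQC, without versions. Dividing each library's values by its smallest value above 0 gave whole reads for 100% of values (tolerance 1e-06). Within neither genotype did the SD of log2(reads + 1) of any gene exceed 1.99961. What set this limit is not given in the sources used here, and tests on genes kept by their spread within groups can make too many calls. The libraries are separate pools, per the labels.

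Genes with a mean value of at least 10 (4152 of 4233) were tested with limma 3.58.1 in R 4.3.3 on log2(value + 1), a scale that understates changes of low genes, with a prior variance that follows the mean level. Calls were two-sided at a Benjamini-Hochberg adjusted p under 0.05. edgeR 4.0.16 (quasi-likelihood, 251 genes called), DESeq2 1.42.0 (427 called) and voom ran on the recovered reads, and single libraries, scalings, filters and priors were varied. The fits were also run on simulated reads with the same dispersion for every gene and no limit on the spread within groups. Those reads differ from these data in both respects, and the outcome is not reported here. Positions and lengths are from GENCODE M21 (GRCm38, the assembly of mm10). Bases shared by nuclear genes are of whole gene spans, introns included, and the exon part was not determined. Intervals on reads cover counting error only. Members, lists and tests were chosen with earlier results of these data known. The rule named every mitochondrially encoded gene, every called gene, in each nuclear family the most abundant member and those with the 2 smallest p, and members called by edgeR or DESeq2. Other listed members were added for completeness, and 1 member that did not pass the test is counted but not reported by name here or drawn.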

Additional observations from a re-analysis of the deposited data

How the results depend on the processing

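The tests on genes with reads in every library and with a robust prior that ignores level were added after seeing the data. The 1 mitochondrially encoded gene called higher became 0 with a pseudocount of 5, a mean of at least 50, the same total (with or without mitochondrially encoded genes and Malat1 in that total), quantile normalization, a prior without trend, both robust priors, edgeR, DESeq2 and reads in every library. Leaving out single libraries gave 0 to 2. Quantile normalization made it 1 called lower where there had been 0. The 3 nuclear members called lower became 1 with quantile normalization and edgeR, 2 with a robust prior that ignores level and 0 with reads in every library, where Mrps33 was not tested, and single libraries left out gave 1 to 3. DESeq2 called 1 nuclear member higher where limma called 0. The 1 other pathway gene called higher became 0 with edgeR and with reads in every library, and 0 to 1 with single libraries left out, while 1 was called lower with each prior that ignores level and 2 with DESeq2. The median of nuclear members, -0.47, was -0.27 with quantile normalization, -0.28 with DESeq2 and -0.58 to -0.033 with single libraries left out. Over all genes, 78 higher and 186 lower became 49 and 116 (mean of at least 50) or 26 and 53 (reads in every library; fewer genes tested in both). The 78 higher became 120 with quantile normalization, 163 with DESeq2 and 134 at an adjusted p under 0.1. Where no construction is named, the cause was not tested.

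Signs turned for COX1 (-0.10 same total, -0.060 quantile, -0.066 same total without mitochondrially encoded genes and Malat1), ATP6 (-0.10, -0.060 and -0.065 in the same order, -0.091 edgeR and -0.055 DESeq2), mt-Rnr2 (-0.032 same total), and with quantile normalization ND4 (-0.016), ATP8 (0.16), mt-Rnr1 (-0.17, called lower, against 0.25, called higher) and Timm22 (0.045; 0.0074 edgeR, 0.065 DESeq2). With single libraries left out, 16 named genes turned sign at least once, over ranges of log2 fold change given here: ND1 (-0.072 to 0.56), ND2 (-0.19 to 0.074), ND4 (-0.076 to 0.45), CYTB (-0.024 to 0.50), COX1 (-0.16 to 0.18), COX3 (-0.62 to 0.83), ATP6 (-0.31 to 0.49), ATP8 (-0.66 to 0.70), mt-Rnr2 (-0.071 to 0.235), Cox7c (-0.95 to 0.27), Cox19 (-0.16 to 1.77), Atp5b (-0.093 to 0.99), Mrpl51 (-0.099 to 1.45), Mrps24 (-0.54 to 0.95), Timm22 (-1.03 to 0.74) and Tomm40 (-0.80 to 0.24).

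With the replicate block, 1 mitochondrially encoded gene was higher, 3 nuclear members were lower and 1 other pathway gene was higher, as without it. The deviations of libraries with the same number were uncorrelated (0.0025 for pair 1, -0.0157 for pair 2, -0.0126 for pair 3), and 0 of 6 libraries were closest to their own number. Depth limits the lowest members, such as mt-Tr and Mrps36.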
